A study of Homo sapiens with 8 samples.

Results

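The genes described here are 10 genes of the actomyosin and microtubule cytoskeleton that megakaryocytes use to make platelets: MYH9, MYH10, MYL9, FLNA, ACTN1, DIAPH1, TUBB1, ZYX, TPM1 and TPM4. They were taken by name, and every RUNX1 peak from 20 kb before to 20 kb after each gene was read, on the human build hg38. These are 10 of 20033 protein-coding genes, and 62 of the 33478 regions found in the whole data lie in their windows. The data are CUT&RUN peak lists, in which an antibody to the HA tag leads a nuclease to DNA bound by a tagged protein and the cut fragments are sequenced. HEL cells, an established human erythroleukemia line that can take on megakaryocyte features, had been transduced with HA-tagged wild-type RUNX1 (WT), HA-tagged RUNX1-4A, HA-tagged RUNX1-4D or an empty vector, and all were grown in 2 µg/ml puromycin. There were 2 biological replicates of each line, which makes 8 libraries of 500000 cells, and peaks of the 6 RUNX1 libraries were called over the empty vector line. In names of this kind A stands for alanine, which takes no phosphate, and D for aspartate, whose charge resembles that of a phosphorylated residue. The HEL cells' own RUNX1 carries no tag and was not read. The labels do not say whether each line was a pool of transduced cells or a clone, and these lists hold no expression values.

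RUNX1 is a transcription factor that binds DNA with its partner CBFB and is needed for megakaryocytes to mature. A maturing megakaryocyte stops dividing its cytoplasm, copies its genome repeatedly and then pushes out long proplatelets, driven by sliding microtubules and held back or shaped by actomyosin tension. RUNX1 is known to lower MYH10, the myosin of the contractile ring, as megakaryocytes become polyploid, and MYL9 is a known RUNX1 target in platelets. Inherited changes in MYH9, ACTN1, DIAPH1, TUBB1, FLNA and TPM4 are known causes of low platelet number, mostly with large platelets.

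The starts of MYH10, MYH9, TPM1, ACTN1 and TUBB1 are shown first, because peaks overlapped their windows and each window holds the RUNX core, the letters TGTGGT or TGCGGT on either strand. Each sequence runs 5′ to 3′ along the gene from 250 bases before to 50 bases after the RefSeq start (GRCh38.p14), in lower case with core matches in capitals. Start sites were found for 9 of the 10 genes. The windows are chr17:8630676-8630975 (minus strand, MYH10), chr22:36387918-36388217 (minus, MYH9), chr15:63048239-63048538 (plus, TPM1), chr14:68977517-68977816 (minus, ACTN1) and chr20:59019179-59019478 (plus, TUBB1).
MYH10: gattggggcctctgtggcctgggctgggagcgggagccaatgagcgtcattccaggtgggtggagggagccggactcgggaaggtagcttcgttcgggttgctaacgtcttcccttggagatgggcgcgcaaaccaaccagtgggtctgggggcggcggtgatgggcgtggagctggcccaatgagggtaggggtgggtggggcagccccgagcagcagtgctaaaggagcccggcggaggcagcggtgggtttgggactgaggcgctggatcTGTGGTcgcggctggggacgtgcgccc
MYH9: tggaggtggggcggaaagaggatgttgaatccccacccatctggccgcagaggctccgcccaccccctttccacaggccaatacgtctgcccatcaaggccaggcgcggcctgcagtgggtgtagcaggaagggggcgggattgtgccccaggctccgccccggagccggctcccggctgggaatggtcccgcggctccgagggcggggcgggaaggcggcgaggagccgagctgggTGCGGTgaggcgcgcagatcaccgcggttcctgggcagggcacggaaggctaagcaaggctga
TPM1: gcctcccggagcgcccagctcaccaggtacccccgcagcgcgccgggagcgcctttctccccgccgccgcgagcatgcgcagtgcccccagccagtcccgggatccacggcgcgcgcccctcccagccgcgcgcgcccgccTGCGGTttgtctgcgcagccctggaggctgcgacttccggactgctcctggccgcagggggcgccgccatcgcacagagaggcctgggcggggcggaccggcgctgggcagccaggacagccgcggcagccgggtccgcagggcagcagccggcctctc
ACTN1: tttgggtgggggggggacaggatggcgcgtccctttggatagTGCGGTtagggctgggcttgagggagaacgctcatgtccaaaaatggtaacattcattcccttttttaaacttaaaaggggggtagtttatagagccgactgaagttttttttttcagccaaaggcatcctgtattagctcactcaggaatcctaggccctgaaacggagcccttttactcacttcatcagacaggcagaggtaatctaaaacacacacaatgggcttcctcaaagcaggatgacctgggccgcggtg
TUBB1: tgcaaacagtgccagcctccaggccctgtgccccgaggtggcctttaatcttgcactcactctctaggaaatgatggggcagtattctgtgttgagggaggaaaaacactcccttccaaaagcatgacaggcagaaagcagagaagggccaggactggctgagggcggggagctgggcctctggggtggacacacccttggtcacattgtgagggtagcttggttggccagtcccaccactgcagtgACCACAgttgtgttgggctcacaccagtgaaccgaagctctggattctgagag
The MYH10 match is TGTGGT, those of MYH9, TPM1 and ACTN1 are TGCGGT, and that of TUBB1 reads TGTGGT on the opposite strand. ACTN1 has 4 RefSeq starts and the one shown is the third along the gene. A match is a description of the letters and was not tested as a binding site.

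The replicate 1 lists were much shorter than the replicate 2 lists in each line. Replicate 1 of WT listed 6764 peaks, of 4A 6266 and of 4D 5358, and replicate 2 was 3.83, 3.87 and 3.94 times as long. Read depth is unknown, so a gene without a peak in a list was not called there, which does not show that RUNX1 was absent. Peaks of the 6 lists were joined into regions wherever they overlapped by at least 1 base. A gene is counted as called in a line when a region in its window held a peak of both replicates. The nearest protein-coding gene of a region was a gene that held the region's midpoint, even where another gene's end lay closer. Where several genes held it, or none did, the gene with the closest end was taken (the midpoint rule).

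Most of these genes were called in each form of RUNX1. With WT 9 of 10 were called, with 4A 9 and with 4D 7, where the share over all protein-coding genes was 34.9% for WT, 31.1% for 4A and 28.0% for 4D. MYL9 was the gene not called in any line, and DIAPH1 and TUBB1 were not called in 4D. A region common to all 6 libraries lay near 7 genes (MYH9, MYH10, FLNA, ACTN1, ZYX, TPM1 and TPM4), and near 21.0% of all protein-coding genes. Among the 12548 genes between the shortest and the longest member, from 9.77 to 157 kb, the share was 22.1% for all 6 libraries. It was 37.1% for WT, 32.6% for 4A and 29.5% for 4D. These genes were not matched in length to each member. Taken one library at a time, replicate 1 called 9 members (WT), 9 (4A) and 7 (4D), beside 35.8%, 32.2% and 29.0% of all genes, and replicate 2 called 10, 9 and 9, beside 66.0%, 65.7% and 61.8%. All 10 had a region in some library, as did 72.3% of all genes. The members had a median of 5.5 regions of any kind in their windows, against 2 over all protein-coding genes, and from 1 (MYL9) to 15 (MYH9). With all lists shortened to 5358 peaks, the counts were 6 (WT), 6 (4A) and 7 (4D), beside 19.7%, 19.6% and 18.4% of all protein-coding genes at that length, so 4D no longer had the fewest. The genes were chosen with earlier results of these data known, and the counts are a description.

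**Figure D1:**
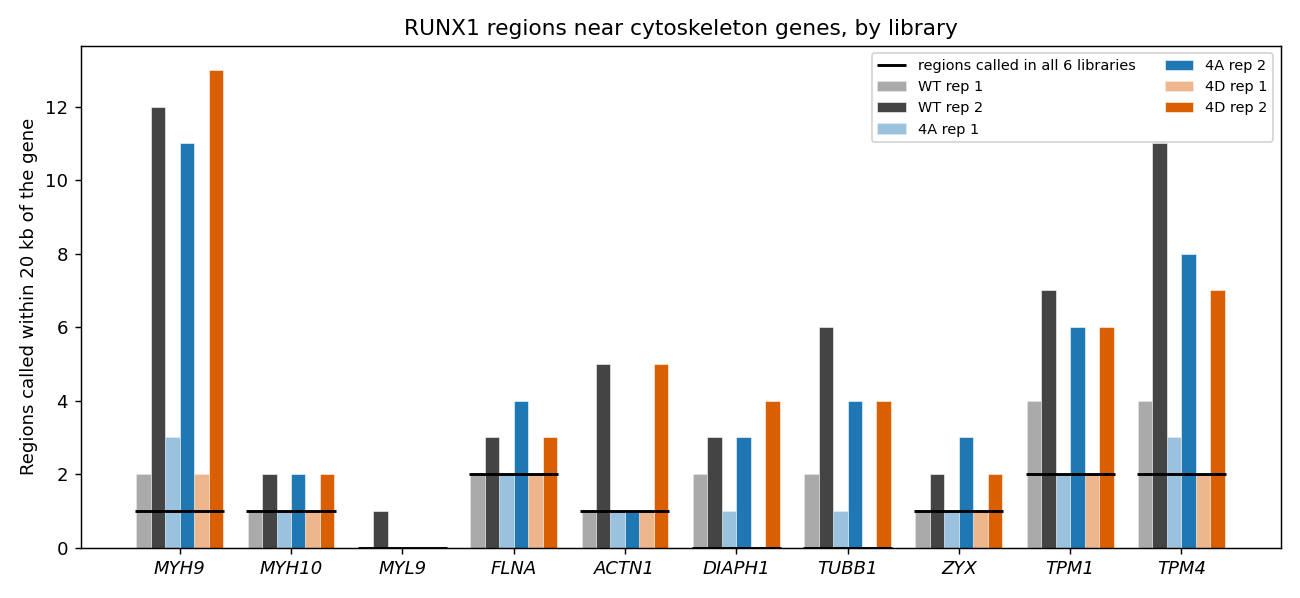
Number of regions called within 20 kb of each gene (vertical axis) in each of the 6 libraries (bars, lighter for replicate 1), with black lines at the number of regions called in all 6. Replicate 2 bars reach 13 at MYH9 and 11 at TPM4, while DIAPH1, TUBB1 and MYL9 have no region common to the 6 libraries.

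MYH10 encodes non-muscle myosin IIB, and its start ranked highest of the group by −log10 q. The region (chr17:8628984-8631738) covered the start, with the authors' fold enrichment over background at 38.6 and 25.9 for replicates 1 and 2 of WT, 26.2 and 38.9 for 4A, and 28.4 and 45.4 for 4D. It stood between the 98.3 and 99.6 percentile of −log10 q in each library's own list. Of the 3295 regions called in all 6 libraries, 98.8% had a lower mean percentile. The percentiles of the 3 lines overlapped, and by them no line stood apart from the others. Fold enrichments and −log10 q values are the authors', are not scaled between libraries, and are used here only to place a peak within its list.

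Summits at MYH10 fell at a pair of places. Counted along the gene from the start at 0, the summit lay at −197 in WT replicate 1, −215 and −175 in 4A, and −247 and −197 in 4D. In WT replicate 2 the peak was a single one of 2727 bases with its summit at 1182. WT replicate 1 and 4A replicate 2 called a second, separate peak there, with summits at 1270 and 1189. The main summit thus lay before the start in 5 of the 6 libraries, and a summit inside the gene was seen with WT and with 4A. The 4D replicate 2 peak reached over it as far as position 1361. Each listed peak carries a single summit, so a second one inside this long peak could not be listed. The core match sits at positions 23 to 28, inside the start peaks of both WT libraries and of replicate 2 of 4A and 4D, whereas the replicate 1 peaks of 4A and 4D both ended at position 17. A second MYH10 region, 18.8 kb into the gene (chr17:8611793-8612285), was called in the replicate 2 lists only, with −log10 q of 24.9 in WT, 4.63 in 4A and 11.5 in 4D. No other region was called across the 157 kb of the gene.

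MYH9 encodes non-muscle myosin IIA, the main myosin of platelets, and had the most regions of the group. The region at its start (chr22:36387638-36388574) had fold enrichments of 36.2 and 20.3 for WT, 18.4 and 19.4 for 4A, and 19.8 and 17.3 for 4D. Its rank lay between the 93.8 percentile of its list (4A replicate 1) and the 99.3 percentile (WT replicate 1). It was thus among the highest peaks of every list. Both WT fold enrichments were above those of 4A and 4D, but fold is not scaled between libraries. The percentiles of the lines overlapped. Summits lay at −231 and −219 for WT, −227 and −100 for 4A, and −367 and −227 for 4D, all before the start. The core match at −13 to −8 lay inside the peak in all 6 libraries, nearest to its edge in 4D replicate 1, whose peak ran from −522 to 2.

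The body of MYH9 held 13 of its 15 regions, 11 of them seen in the replicate 2 lists alone. A group of 6 regions lay between 52.7 and 58.5 kb from the start (first and last bases 36329099 and 36335359), and none of the 6 was called in a replicate 1 list. The strongest of them (chr22:36329099-36329727) had −log10 q of 33.8 in WT, 41.2 in 4A and 20.5 in 4D. Its summits in the 3 libraries lay within 14 bases of each other. A region 19.3 kb from the start was called in 5 libraries, all but 4A replicate 1. Its −log10 q was 14.4 and 16.9 for WT, 12.7 for 4A replicate 2, and 8.93 and 16.8 for 4D. Conversely, the regions 97.8 kb into the gene and 17.9 kb before it were called with 4A in both replicates and with WT and 4D in replicate 2, with −log10 q of 7.89 and 1.88 in 4A replicate 1.

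MYL9 encodes the regulatory light chain that switches these myosins on when it is phosphorylated. One region lay in its window, 13.5 kb beyond the upper end of the gene (chr20:36564872-36565053), with TGIF2 as the nearest protein-coding gene. It was called in WT replicate 2 alone, with a −log10 q of 11.2 at the 52.9 percentile. No list had a peak inside MYL9.

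**Figure D2:**
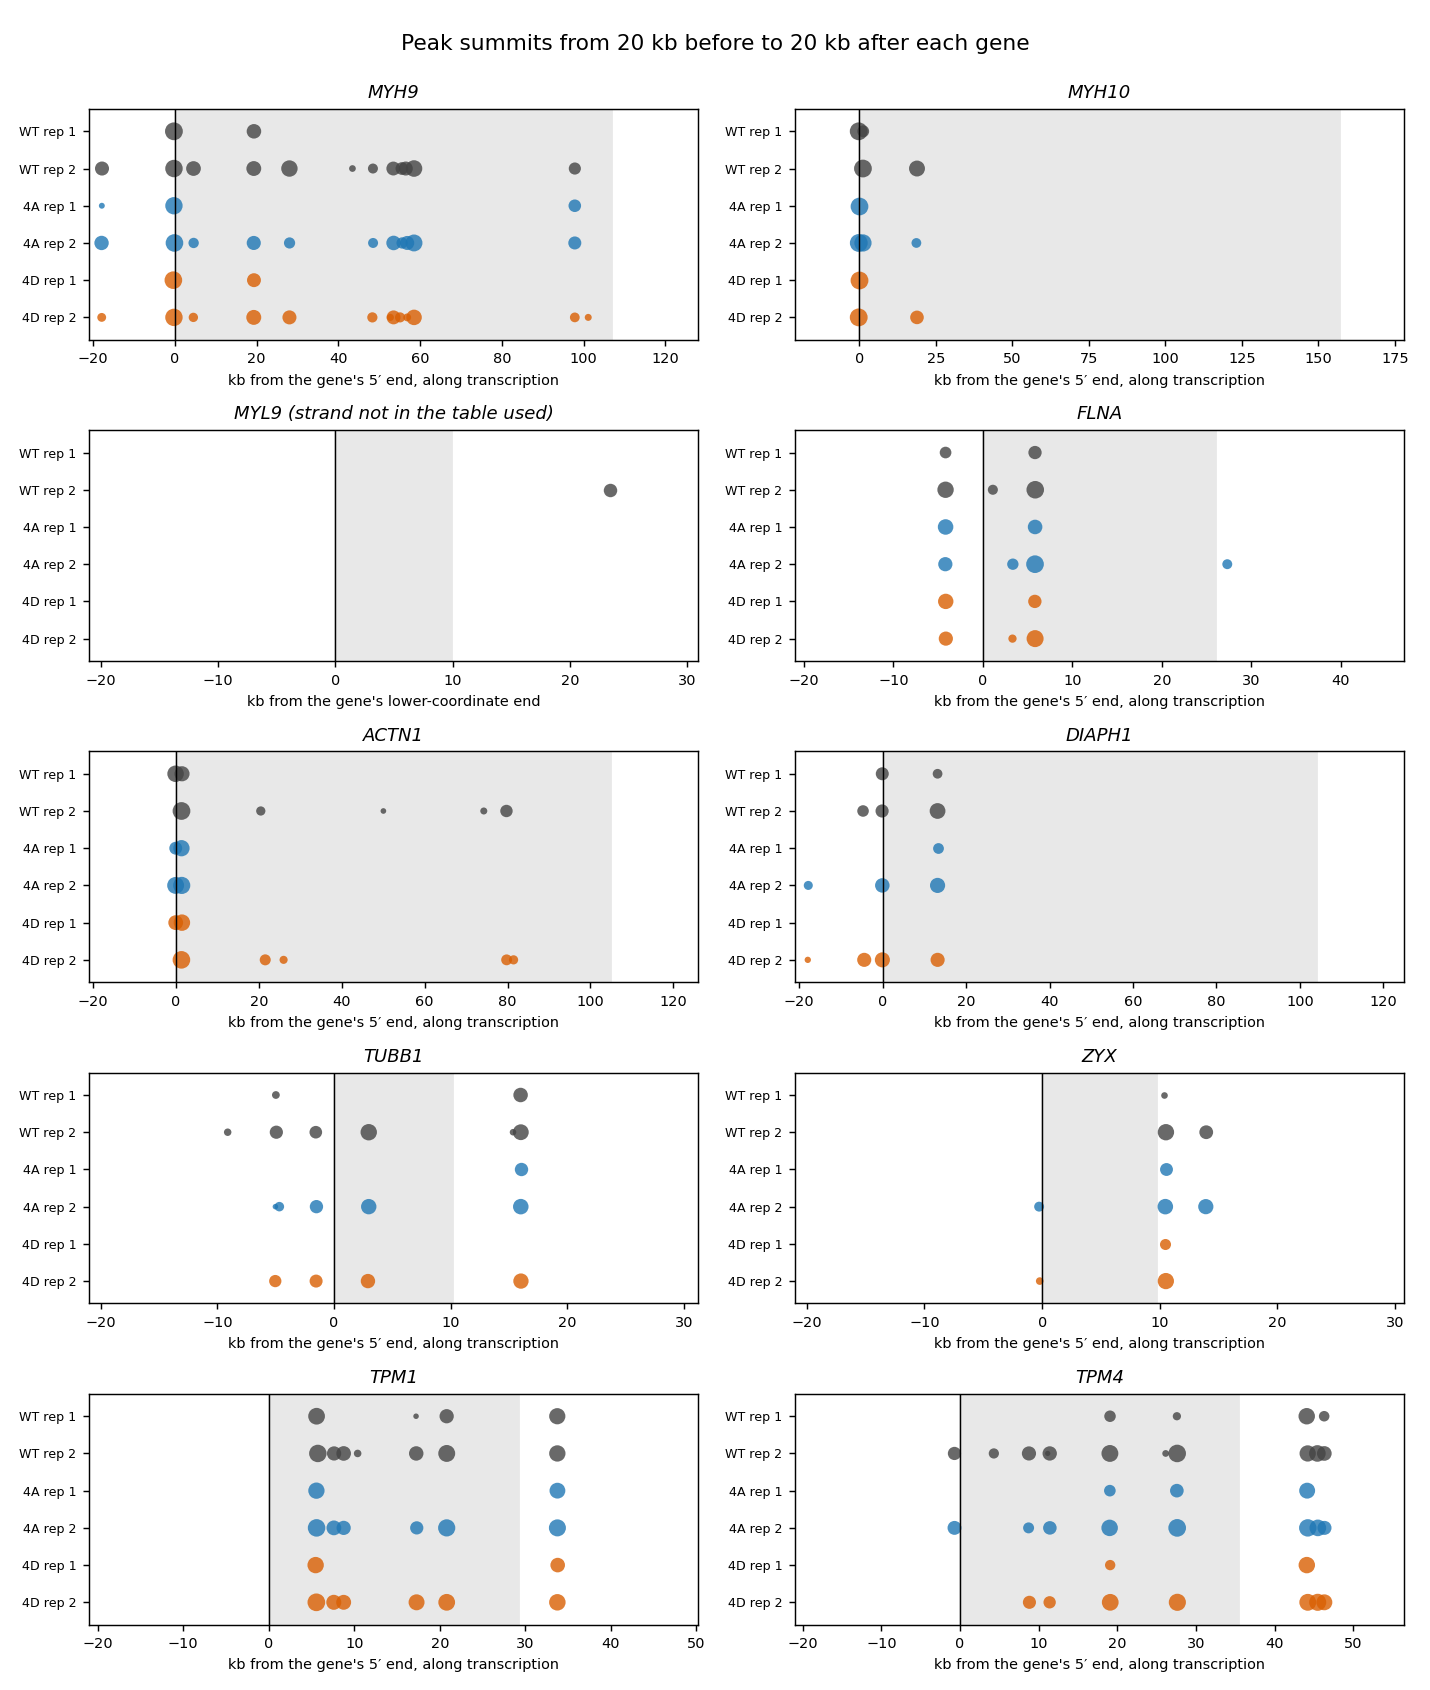
Peak summits from 20 kb before to 20 kb after each gene (horizontal axis, kb from the 5′ end, gene in grey) in each library (rows), with circle area growing with the percentile of −log10 q in its own list. Large circles in all 6 rows mark the starts of MYH10, MYH9 and ACTN1, and the MYH9 body fills in only in the replicate 2 rows, apart from 3 circles.

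Among the proteins that cross-link and anchor actin, ACTN1 (alpha-actinin-1, which bundles actin filaments) carried a broad region over its first starts (chr14:68977537-68979869). It covered 3 of the 4 RefSeq starts and 2333 bases. The highest −log10 q there was 26.0 and 110.7 for WT, 19.6 and 50.2 for 4A, and 17.3 and 78.0 for 4D. Within the lists it ranked from the 81.5 to the 98.4 percentile, lower in replicate 1 than in replicate 2 of each line. Separate peaks at the first start and between 1.31 and 1.44 kb into the gene were called in 4 libraries (both replicates of 4A and replicate 1 of WT and 4D), and in WT and 4D replicate 2 they ran together in peaks of 2328 and 1974 bases. WT replicate 1 had its higher fold at the first start (11.7, against 9.09 at the inner peak), whereas 4A replicate 1 and 4D replicate 1 had it at the inner peak (12.6 against 6.39, and 11.7 against 7.88) and 4A replicate 2 at the first start (13.5 against 12.0). The 7 other ACTN1 regions lay inside the gene and were called in no replicate 1 list, 6 of them in a single library.

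FLNA encodes filamin A, which links actin to the receptor for von Willebrand factor, and its regions lay away from its start. Inside the gene, 5.83 kb from the start, a region (chrX:154368479-154369980) had fold enrichments of 8.48 and 25.8 for WT, 9.03 and 23.8 for 4A, and 7.60 and 15.7 for 4D. It was a middle peak of the replicate 1 lists (51.2, 63.5 and 51.8 percentile of WT, 4A and 4D) and a high one of the replicate 2 lists (96.1, 97.6 and 89.7). Its summits fell within 43 bases of each other in the 6 libraries. The other region of all 6 libraries (chrX:154378596-154379306) lay 4.17 kb before the start and closer to EMD, which encodes emerin of the inner nuclear membrane, with fold enrichments of 7.69 and 14.8 for WT, 10.8 and 7.71 for 4A, and 9.89 and 8.43 for 4D. No library had a peak over the FLNA start window.

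ZYX encodes zyxin, a protein of focal adhesions and strained actin fibres. Its region in all 6 libraries (chr7:143391459-143392164) lay 0.754 kb beyond the gene, with EPHA1, an ephrin receptor gene, nearest by the midpoint rule. Its −log10 q was 2.91 and 30.0 for WT, 8.46 and 20.6 for 4A, and 5.26 and 27.7 for 4D. WT replicate 1 called it at the 6.07 percentile of its list, and by mean percentile (53.9) this was the lowest ranked of the 10 regions of all 6 libraries near these genes. At the ZYX start a region was called in 4A and 4D replicate 2 only (−log10 q of 4.79 and 3.02). The ZYX region with the highest mean percentile over the lists that called it (63.0) lay 4.14 kb beyond the gene, also nearest to EPHA1. It was called in WT and 4A replicate 2 only (−log10 q of 12.2 and 18.4).

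DIAPH1 encodes the formin mDia1, which assembles actin filaments and steadies microtubules. At its start (chr5:141618807-141619403) the −log10 q was 10.3 and 10.4 for WT, 14.5 for 4A replicate 2 and 17.6 for 4D replicate 2, with no call in either replicate 1 list of the mutants. Summits lay between −134 and −69 in those 4 libraries. A second region 13.2 kb into the gene was called in 5 libraries, all but 4D replicate 1. There the −log10 q was 5.66 and 23.1 for WT, 5.62 and 18.0 for 4A, and 13.1 for 4D replicate 2. At the start the 4 peaks ranked between the 48.7 and 68.7 percentile of their lists, well below those of MYH10 and MYH9.

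TUBB1 encodes beta-1 tubulin, the form of the platelet's marginal microtubule ring. At its start (chr20:59019153-59019668) the −log10 q was 30.5 in WT, 19.6 in 4A and 14.1 in 4D, all in the replicate 2 lists. The replicate 1 lists had no call there. Summits lay at −21 in WT and 4A and at −89 in 4D, beside the core match at −3 to 2. The TUBB1 region called in both replicates of WT and of 4A was another one, 5.79 kb beyond the gene's far end (chr20:59031961-59032721) and nearest to ATP5F1E, a subunit of the mitochondrial ATP synthase. It was called in 5 libraries, all but 4D replicate 1, where the −log10 q was 14.4 and 23.8 for WT, 9.13 and 20.6 for 4A, and 18.9 for 4D replicate 2. A further region before the gene, nearest to CTSZ, was also called in both WT replicates (−log10 q of 3.79 and 10.5). With regions counted only for their nearest protein-coding gene, TUBB1 and ZYX were no longer called, and the counts became 7 (WT), 7 (4A) and 6 (4D), beside 22.1%, 19.5% and 17.5% of all protein-coding genes counted in that way.

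**Figure D3:**
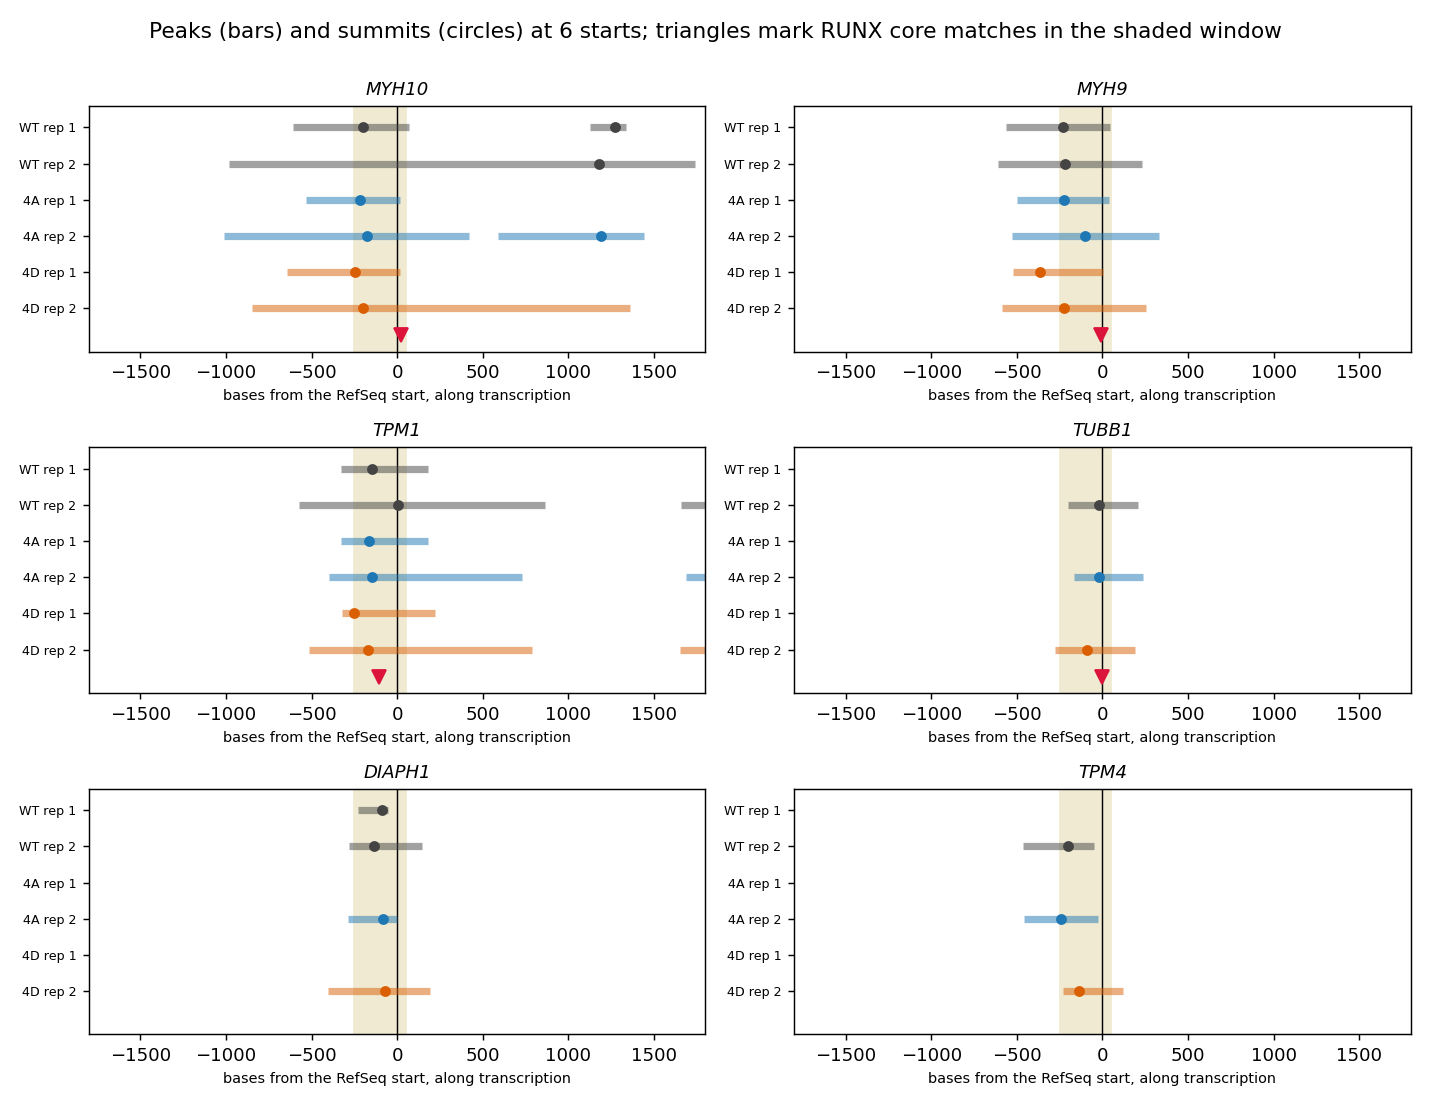
Peaks (bars) and their summits (circles) in the 6 libraries around the RefSeq starts of MYH10, MYH9, TPM1, TUBB1, DIAPH1 and TPM4 (its second start) (horizontal axis, bases from the start along transcription), with triangles at RUNX core matches in the shaded window. MYH10, MYH9 and TPM1 have a peak over the start in all 6 rows, and TUBB1 in the 3 replicate 2 rows, while DIAPH1 has a peak at or shortly before the start in 4 rows and TPM4 in the 3 replicate 2 rows.

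Tropomyosins lie along actin filaments and set which myosins and other proteins can reach them. TPM1 had a region over its RefSeq start (chr15:63047918-63049353) in all 6 libraries. Its fold enrichments were 13.5 and 18.2 for WT, 10.8 and 14.5 for 4A, and 8.98 and 22.0 for 4D. Its percentiles ran from 81.7 (4A replicate 1) to 97.8 (4D replicate 2), and the lines overlapped. Summits lay at −144 and 4 for WT, −163 and −144 for 4A, and −254 and −170 for 4D. All but that of WT replicate 2 lay before the core match at −109 to −104.

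Further TPM1 regions lay within the gene and beyond it. A region 4.58 kb past the far end (chr15:63076438-63076786) was called in all 6 libraries, where the −log10 q was 23.4 and 29.6 for WT, 16.8 and 45.0 for 4A, and 10.5 and 31.3 for 4D. A region 15.1 kb from the start (chr15:63063366-63063787) was called in both WT replicates (13.5 and 41.7) and in replicate 2 of 4A (52.1) and 4D (36.0). It was not called in replicate 1 of either mutant, nor were the DIAPH1 start and the TPM1 region 11.5 kb from the start. These 3 regions, with the TUBB1-side region nearest CTSZ and one nearest RAB8A near TPM4, were the 5 called in both WT replicates and in replicate 2 only of each mutant, or 8.06% of the 62 regions against 3.41% of all regions. The same pattern with both 4A replicates was found at 2 regions, both of MYH9 (3.23% against 2.71%), and with both 4D replicates at 0 (against 1.58%). Of the 5 WT regions, the DIAPH1 start and the TPM1 region at 15.1 kb stood at the 48.7 and 60.5 percentile of WT replicate 1. The others stood lower there, at 29.1 (nearest RAB8A), 11.7 (nearest CTSZ) and 1.5 (TPM1 at 11.5 kb, −log10 q of 1.91).

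TPM4 encodes a tropomyosin of the platelet cytoskeleton, and 11 regions lay in its window, the densest of the group at 14.6 regions per 100 kb. Counting only regions of all 6 libraries, TPM4 (2.65 per 100 kb) came below FLNA (3.03) and TPM1 (2.89). Of the 11 TPM4 regions, 7 were called in no replicate 1 list and 3 in a single library. The 2 called in all 6 libraries lay 19.1 kb from the gene's 5′ end (chr19:16086332-16086863) and 8.77 kb past its far end (chr19:16111217-16111902), the latter nearest to RAB8A, a small GTPase of vesicle traffic. The first had −log10 q values of 7.75 and 40.6 for WT, 6.59 and 32.1 for 4A, and 4.68 and 36.2 for 4D. The second had 25.6 and 28.9 for WT, 17.3 and 64.3 for 4A, and 17.3 and 39.3 for 4D. By mean percentile the second ranked higher (84.7 against 60.1), and in both regions the lines overlapped. The TPM4 region with the highest mean percentile over the lists that called it (87.1) was chr19:16112546-16113358, also nearest to RAB8A. It was called in the replicate 2 lists only, with −log10 q of 34.15 in WT, 35.0 in 4A and 45.35 in 4D. A further region inside the gene (chr19:16094684-16095487) reached 77.0 in WT, 96.5 in 4A and 47.4 in 4D in the replicate 2 lists, but only 4.29 and 9.79 in replicate 1 of WT and 4A, with no call in 4D. Of the 3 TPM4 start windows, the second was overlapped in the replicate 2 lists only (−log10 q of 13.7 for WT, 6.04 for 4A and 10.2 for 4D), the others in none, and of those peaks only that of 4D reached over the start itself.

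**Figure D4:**
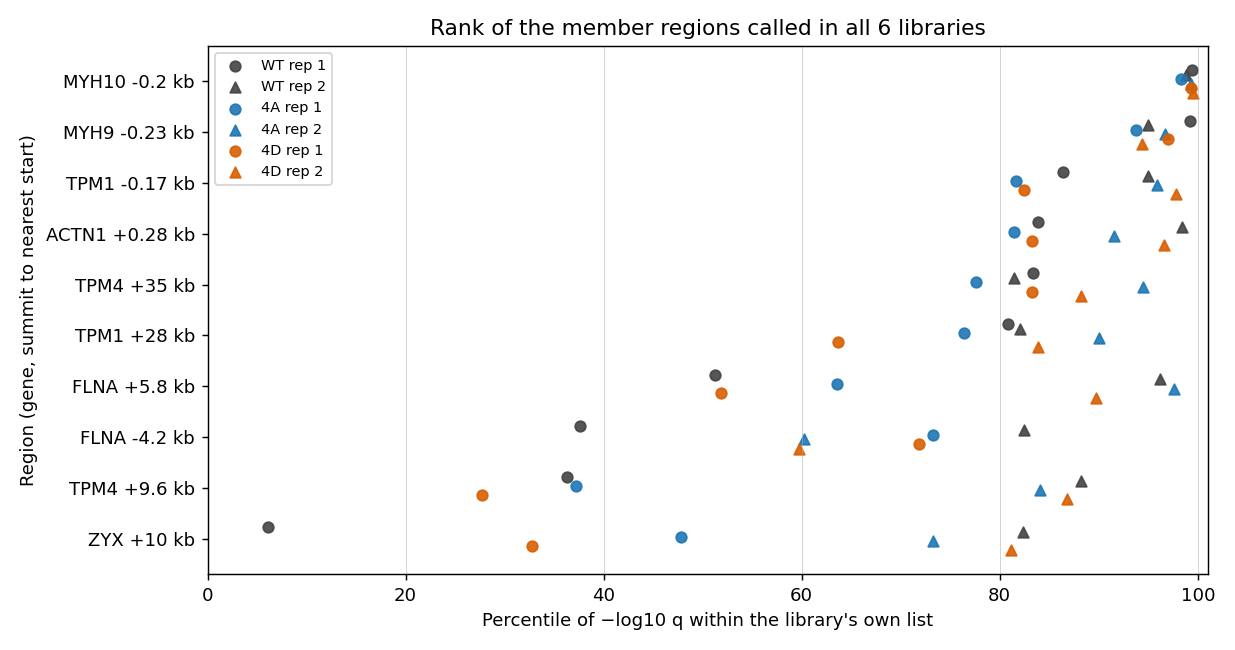
Percentile of −log10 q within each library's own list (horizontal axis) for the 10 regions near these genes called in all 6 libraries, named by gene and distance from the nearest RefSeq start, with circles for replicate 1 and triangles for replicate 2. By mean percentile the 4 regions at starts (MYH10, MYH9, TPM1 and ACTN1) rank highest, but not in every library. The FLNA region inside the gene lies above MYH9 and TPM1 in WT replicate 2 (96.1), and above MYH9, TPM1 and ACTN1 in 4A replicate 2 (97.6). The TPM4 region past the gene lies above ACTN1 in 4A replicate 2 (94.4) and above TPM1 in 4D replicate 1 (83.3). The FLNA and TPM4 regions inside the genes and the ZYX region rank far lower in replicate 1 than in replicate 2.

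By position against the outer gene ends, 40 of the 62 regions had their strongest summit inside the gene. Of the rest, 12 lay before it and 9 beyond its far end, leaving the MYL9 region. The regions over the TPM1, TUBB1, ACTN1 and second TPM4 starts counted as inside the gene on this measure. For 14 regions the nearest protein-coding gene was another gene. A RefSeq start window was overlapped by 4 of the 10 regions of all 6 libraries and by 3 of the 41 regions of no replicate 1 list. For position, nearest gene and start overlap, the shares over all regions were not taken. Whether these counts differ from those of other genes was therefore not tested. Start windows overlapped by a region of both replicates were found with WT at 5 of the 9 genes that have a start (MYH9, MYH10, ACTN1, DIAPH1 and TPM1) and with 4A and with 4D at 4 (MYH9, MYH10, ACTN1 and TPM1). Over all protein-coding genes with a start the shares were 16.3% (WT), 12.9% (4A) and 11.9% (4D), and 8.87% for a region of all 6 libraries, found at 4 of the 9. In replicate 2 alone 7 of the 9 genes had a start window overlapped with WT, 8 with 4A and 8 with 4D, against 37.3%, 37.3% and 32.9% of all genes with a start. Counting any library, 8 of the 9 had one, all but FLNA, against 42.6% of genes.

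The comparison of 4A and 4D with WT asks whether the forms differ in where they bind at these genes, and no region parted the lines. Of the 62 regions, 0 had a peak in both replicates of one line with no peak in either replicate of another, in any of the 6 directions. Over all 33478 regions the shares were 0.472% for WT and not 4D, 0.114% for 4D and not WT, 0.269% for WT and not 4A, 0.206% for 4A and not WT, 0.669% for 4A and not 4D, and 0.314% for 4D and not 4A, so a count of 0 among 62 is near the background. Calls in all 6 libraries made up 16.1% of the regions near these genes and 9.84% of all regions. Calls in all 3 replicate 2 lists and no replicate 1 list made up 22.6%, against 22.3%. Calls in all 3 replicate 2 lists, whatever the replicate 1 lists held, made up 56.5%, against 45.6%, and those with 1 or 2 replicate 1 lists besides made up 17.7%, against 13.4%. Regions with no replicate 1 call made up 66.1%, against 72.6%, and regions of a single library 30.6%, against 34.5%.

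The share of a list's peaks that lay near these genes was 0.310% and 0.201% for WT, 0.255% and 0.186% for 4A, and 0.224% and 0.218% for 4D. WT replicate 1 was highest and 4A replicate 2 lowest, so the lines overlapped. WT averaged 0.256 ± 0.0776%, 4A 0.220 ± 0.0493% and 4D 0.221 ± 0.00437% (mean ± SD, n = 2). The differences were −0.0347 percentage points (4D minus WT, exact permutation p = 1), −0.0351 (4A minus WT, exact permutation p = 0.667) and 0.00042 (4D minus 4A, exact permutation p = 1), all two-sided and each with an adjusted p of 1 over the 3 comparisons. An exact permutation test of 2 libraries against 2 cannot go below p = 0.333. Without WT replicate 1 the first 2 differences turned to 0.0202 and 0.0198. Within replicate 1 alone 4D minus WT was −0.0865 and 4A minus WT −0.0551, and within replicate 2 alone they were 0.0171 and −0.0151, so the 4D difference changed sign between replicate numbers and the 4A difference did not.

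In the RefSeq start windows the RUNX core was found in 5 of the 14 windows of these genes, against 19.0% of 22198 windows of protein-coding genes. It was found in 30.1% of windows overlapped by a region of all 6 libraries and in 16.8% of windows overlapped by none. The longer letters TGTGGTT or TGCGGTT, which contain the core, were in 2 of the 14 (TPM1 and ACTN1), against 5.57% of all windows. The GATA core (AGATAA or TGATAA) was in 1, an ACTN1 window without a region, against 12.5%. The ETS core (AGGAAG or CGGAAG) was in 9, against 49.8%.

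The CArG box, the letters bound by SRF, which with its cofactor MRTFA drives many actin cytoskeleton genes, was in 3 of the 14 windows and in 1.25% of all windows. These were CCAAAAATGG in ACTN1 (chr14:68977728-68977737), CCAATTAAGG in FLNA (chrX:154374719-154374728) and CCAAATAAGG in TPM4 (chr19:16067365-16067374), shown because few start windows hold this box. In ACTN1 the box lay at −171 to −162 from its start, inside the peaks of the 3 replicate 2 lists and of no replicate 1 list, beside the RUNX core at −208 to −203, and the FLNA and TPM4 boxes lay in start windows with no region in any list. The ACTN1 core lay inside the peaks of 4 libraries, and the replicate 1 peaks of 4A and 4D began at 68977777 and 68977782, just past it. All motifs were searched on both strands.

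Other genes of the same machinery were taken from a list of 58, with myosin light chains, actin and tubulin genes, Arp2/3 subunits, capping and severing proteins and adhesion linkers. Of these 42 were called with WT, 36 with 4A and 37 with 4D, beside the 34.9%, 31.1% and 28.0% of all protein-coding genes, and 27 had a region of all 6 libraries in their window, beside 21.0%. With all lists at one length the counts were 26 (WT), 24 (4A) and 27 (4D), beside 19.7%, 19.6% and 18.4%, so WT no longer had the most. The highest mean rank was at MRTFA (chr22:40636288-40637507), 0.164 kb from its start, with −log10 q between 67.6 and 211 in the 6 lists. ACTN4, the second non-muscle alpha-actinin, had its best region inside the gene, 17.6 kb from a start (−log10 q 13.8 to 189.5). CTTN, a branch-point protein of actin networks, had one with −log10 q from 17.6 to 117.3, and TLN1, the integrin activator talin, one with 10.9 to 124.2. LIMS1 and VCL, both of integrin adhesions, had best regions of 20.1 to 37.3 and of 9.38 to 56.8. For CAPZB, TUBB, PFN1 and FERMT3 the best region had another gene as its nearest protein-coding gene, as it did (MYOM1) for MYL12A and MYL12B. MYL12A and MYL12B, which encode light chains of the same myosins as MYL9, shared one region (chr18:3246554-3248179, −log10 q 10.2 to 107.8), 0.145 kb from the MYL12A start. SRF, named here after its values were seen, had a region of all 6 libraries 0.085 kb from its start with −log10 q of 13.4 to 28.0.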

How the data were processed

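Peak lists of 6 CUT&RUN libraries (WT, 4A and 4D, 2 replicates each) were analysed, and the 2 empty vector libraries served as background in the authors' peak calling, per the labels. Per the submitters' processing notes, the tools were MACS2 2.2.7.1, deepTools 3.5.1, Bowtie2 2.4.2, cutadapt 3.4 and Picard 2.25.6, with build hg38, and read filters and the pooling of background libraries are not given in the sources used here. Per the labels' protocols, cells were permeabilized with 0.01% digitonin and libraries had 12 PCR cycles. The authors deposited for each peak a score, a fold enrichment (a linear ratio), a p-value and a q-value (both as −log10), and a summit offset in bases. Only peaks of the autosomes, X and Y were kept, which left out 3 to 19 peaks per list. Regions were joined and matched to genes with pandas 2.3.3 and numpy 2.4.6 in Python 3.11.15, checked on simulated lists with known regions. Genes came from RefSeq (GRCh38.p14), without exons, and 1 gene (MYL9) had no start in the table used. Where a library had several peaks in a region, the one with the highest −log10 q gave its values, and percentiles are ranks of −log10 q within a list.

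The members and gene lists were chosen with earlier results of these data known. All 10 members were named. For each, the region with the highest mean percentile and every region of all 6 libraries are given, with some of the others. Of the 58 other genes, those named were the 12 whose best region of all 6 libraries had the highest mean percentile. Counts carry no test. The share of peaks near members was compared by exact permutation. Alternatives were other windows, the nearest gene, a −log10 q of at least 5, equal list lengths, other overlap rules and left-out replicates. Start windows were added after seeing the data. The replicates are called biological in the labels, and p-values measure only the spread of the lists. That spread includes list length, which differed between replicate numbers in every line.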

Additional observations from a re-analysis of the deposited data

How the results depend on the processing

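Members called ranged from 6 to 10 in WT, 6 to 9 in 4A and 6 to 9 in 4D over 11 alternatives, all within 1.5 times the main counts. Shares over all protein-coding genes were taken only for the nearest gene, lists at one length and single libraries. Leaving out a replicate number, so that a single list per line made the call, gave 9 to 10 in WT, 9 in 4A and 7 to 9 in 4D. In single libraries the shares of all genes were 35.8% and 66.0% (WT), 32.2% and 65.7% (4A), and 29.0% and 61.8% (4D). Regions common to all libraries near members numbered 7 to 13 under 10 alternatives. With a replicate number left out, a region had to be common to 3 lists only. The number was then 11 to 35, 35 being without the short replicate 1 lists. Shares over all regions were not taken for these alternatives. Start windows, an analysis added after seeing the data, were overlapped in both replicates at 5 genes in WT and 4 in 4A and 4D. Leaving out a replicate number left a single list per line. In those lists start windows were overlapped at 5 to 7 genes in WT and 4 to 8 in 4A and 4D. Over all genes with a start, replicate 2 alone gave 37.3% (WT), 37.3% (4A) and 32.9% (4D). For replicate 1 alone the share was not taken. Of the 58 other genes, 26 were called in WT with all lists at one length, beside 19.7% of all protein-coding genes. Leaving out a replicate number, again with a single list per line, gave 42 to 56 in WT, 36 to 56 in 4A and 37 to 54 in 4D. The single-library shares given above apply to these counts too. The longer RUNX core left 2 windows with a match.

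For the share of a list near members, comparing lines within replicate numbers (the replicate block) left the differences at −0.0347 (4D minus WT, exact p = 1), −0.0351 (4A minus WT, exact p = 0.5) and 0.00042 (4D minus 4A, exact p = 1), where the smallest possible p is 0.5. The numbers are shared by title alone. Leaving out libraries gave −0.0896 to 0.0202 (4D minus WT), −0.09 to 0.0198 (4A minus WT) and −0.0345 to 0.0353 (4D minus 4A). With a −log10 q of at least 5, 4A minus WT became 0.0039 and 4D minus 4A −0.00946. With all lists at one length 4D minus 4A was −0.028, and with equal lengths within each number −0.0233. The cause was not tested. No alternative brought a difference past the threshold, which the design cannot reach. Read depth is unknown here, and its part in the shorter replicate 1 lists was not tested.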
